A study of Mus musculus with 12 samples.

Results

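The transcripts of NRF2 (Nfe2l2), of its inhibitor KEAP1 (Keap1) and of 7 regulators that work beside them were followed in B16F10 cells, a mouse melanoma line, after DAC, SFN and their combination. The members were taken by gene symbol and were Nfe2l2, Nfe2l1, Keap1, Mafg, Maff, Mafk, Bach1, Sqstm1 and Cul3. All 9 were among the 24421 symbols listed for every library, and all 9 passed the filter that kept 11638 genes for testing. RNA sequencing was done on 3 replicates, described as independent repeats of the experiment, in each of 4 groups of this single cell line. Control cells received the vehicle DMSO. The DAC group received 25 nM 5-aza-2′-deoxycytidine (DAC), a nucleoside analog that inhibits DNA methylation, over 72 h. The SFN group received sulforaphane (SFN), an isothiocyanate from cruciferous vegetables, for the last 48 h. The combination treatment (DAC+SFN) joined 25 nM DAC over 72 h with SFN for the last 48 h. The labels give an SFN dose of 5 nM for the single treatment and 5 µM for the combination, whereas the methods of the study name the µM dose for both. By the labels the SFN dose therefore differs wherever these 2 groups are set against each other, the interaction of the drugs included.

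NRF2 is the transcription factor that switches on antioxidant and detoxifying genes when cells meet oxidants or electrophiles. KEAP1 binds NRF2 and presents it to a ubiquitin ligase built on CUL3, so that NRF2 protein is made and degraded continuously, and electrophiles such as SFN modify cysteines of KEAP1 and let NRF2 accumulate. This control acts on the protein, and transcript levels do not report it. In the nucleus NRF2 pairs with a small MAF protein (MAFF, MAFG or MAFK) on antioxidant response elements, where BACH1 with the same partners acts as a repressor. The cargo receptor p62, the product of Sqstm1, binds KEAP1 and carries it to autophagy, and NRF1 (Nfe2l1) is a relative of NRF2 that controls proteasome genes.

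The DNA letters that NRF2 and small MAF proteins recognise can be looked for next to the start sites of the members themselves, because some regulators of the pathway are known targets of it. The core of the antioxidant response element, TGACNNNGC, was searched on both strands in the RefSeq promoter windows of 300 bases (250 before and 50 after the start) on GRCm38.p6. The 9 members had 15 windows, and 4 members held a match in 1 window each, beside 12.4% of all 32851 windows. These 4 sites are shown because they belong to the NRF2 gene itself and to each of the 3 small MAF genes, with the core in capitals and written in the direction in which the core reads.
Nfe2l2 (chr2:75704885-75704913, minus strand): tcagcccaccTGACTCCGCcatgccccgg
Mafk (chr5:139791513-139791535, minus strand): gtacTGACACCGCttccgggatc
Mafg (chr11:120633751-120633779, plus strand): ctcgccgggtTGACCGTGCtcctgcagag
Maff (chr15:79346499-79346527, plus strand): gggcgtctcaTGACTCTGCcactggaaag
The core began 240 bases before the start of Nfe2l2, 112 bases before that of Maff and, counted from its base farthest upstream, 222 bases before that of Mafg and 13 bases before that of Mafk. The Mafk site lies inside the gene model of GENCODE M21, whose first transcript starts earlier than the RefSeq one, and the other 3 lie outside their gene models. No match stood in the windows of Keap1, Cul3, Sqstm1, Bach1 and Nfe2l1. The core letters of the MAF recognition element, TGCTGAC, were searched in the same way and stood in 3 overlapping windows of Nfe2l1, which share 1 site, and in no window of the other members, beside 4.67% of all windows. A match of these letters is a description of the window and not a measured binding site.

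The libraries held between 15880957 and 27291436 counts on genes, and levels are given as CPM (counts per 1e+06 counts of the library, scaled by TMM). All 7 melanocyte markers were abundant, with Tyrp1, a pigment enzyme, at 166904 to 304058 counts. Among 8 markers of other cell types, Cdh5 was at 0 in every library and Ptprc, Epcam, Krt5 and Krt14 did not exceed 2 counts, while the fibroblast collagen gene Col1a1 ranged from 284 to 9514 counts. The summed level of these 8 markers was 17.5 to 321 CPM in control, 23.4 to 373 CPM with DAC, 17.8 to 251 CPM with SFN and 26.9 to 258 CPM with DAC+SFN. This sum followed the replicate number, at 62.4 to 92.0 CPM in the 4 libraries of replicate 1, 17.5 to 26.9 CPM in those of replicate 2 and 251 to 373 CPM in those of replicate 3. Of the 2 that could be tested, Col1a1 and Col1a2, neither was called against control in edgeR, and Col1a2 was lower with DAC+SFN than with DAC (log2 change -0.71, edgeR adjusted p = 0.0493). DESeq2 called 1 of the 2 lower there and with SFN. Of the melanocyte markers, Pmel fell with DAC+SFN by 0.36 on the log2 scale (edgeR adjusted p = 0.0129) and Tyrp1 fell by 0.17 (edgeR adjusted p = 0.0478), and Tyr was higher with DAC+SFN than with DAC by 0.16 (edgeR adjusted p = 0.0442). The part of these shifts in the results below was not tested.

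Per kilobase of exon, Sqstm1 was by far the most abundant member in control cells, at 307 ± 60.7 CPM per kb (SD, n = 3). Both CNC factors followed, Nfe2l1 at 53.2 ± 1.28 and Nfe2l2 at 44.3 ± 5.72 CPM per kb, and then Cul3, the ligase scaffold, at 36.8 ± 1.75 CPM per kb. The remaining members were much lower. Keap1 stood at 10.5 ± 0.367, Mafg at 6.99 ± 0.412, Bach1 at 6.58 ± 0.540 and Mafk at 6.46 ± 0.417 CPM per kb. Maff was the lowest member, at 0.938 ± 0.217 CPM per kb, which rested on 45 to 60 counts per control library. In this order 6 of 8 neighbours had ranges that did not overlap, and the neighbours Mafg and Bach1, and Bach1 and Mafk, could not be separated. When the longest transcript of each gene was used as the length instead, Nfe2l2 lay above Nfe2l1 in control, and Mafk already lay above Mafg and Bach1 there. Among all genes tested, Sqstm1 lay at percentile 99.4 of the control CPM and Maff at percentile 8.73.

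**Figure D1:**
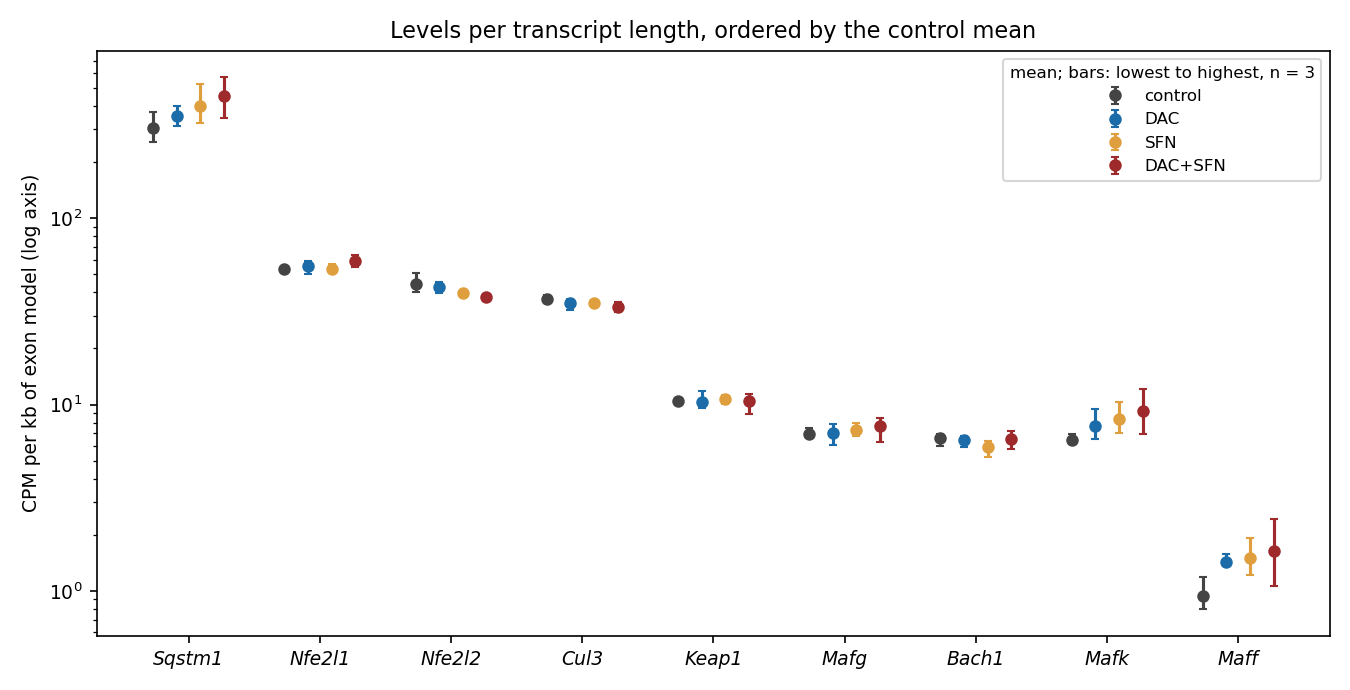
CPM per kb of exon model (log axis) for the 9 members in control, DAC, SFN and DAC+SFN, ordered by the control mean, where points are means and bars run from the lowest to the highest of 3 replicates. Sqstm1 lies above all other members in every group and Maff below them, and Mafk moves from the level of Bach1 in control (6.46 CPM per kb) to 9.24 CPM per kb with DAC+SFN.

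The 3 treatments left this order largely as it was, with 1 exception. On the exon lengths, the mean of Mafk, which lay below Mafg and Bach1 in control, lay above both in all 3 treated groups, at 7.68 ± 1.56 CPM per kb with DAC, 8.36 ± 1.70 with SFN and 9.24 ± 2.64 with DAC+SFN. Its range still overlapped that of Mafg in each of these groups, and it overlapped that of Keap1 with SFN and with DAC+SFN.

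The first question was which of these regulators changed their transcript level with SFN alone. With SFN, 2 of 9 members passed an adjusted p-value of 0.05 in edgeR's quasi-likelihood test, Sqstm1 and Mafk, and both were higher, while 13.9% of all genes passed (8.27% higher, 5.65% lower). No member reached a 2-fold change, which 1.28% of all genes did with SFN, 0.0344% with DAC and 2.66% with DAC+SFN. With DAC+SFN, 4 of 9 members passed, with Sqstm1, Mafk and Maff higher and Nfe2l2 lower, beside 31.6% of all genes (17.0% higher, 14.7% lower). DAC alone moved no member past the threshold in edgeR or in DESeq2, beside 0.180% of all genes, and 3 members had an unadjusted p-value under 0.05 in edgeR, beside 10.1% of all genes. The members as a list lay close to all genes, with a median log2 fold change of 0.03 against 0.00 over all genes with SFN and 0.14 against 0.01 with DAC+SFN. In bulk RNA a change in every cell and a change in the share of cells with the transcript cannot be told apart.

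**Figure D2:**
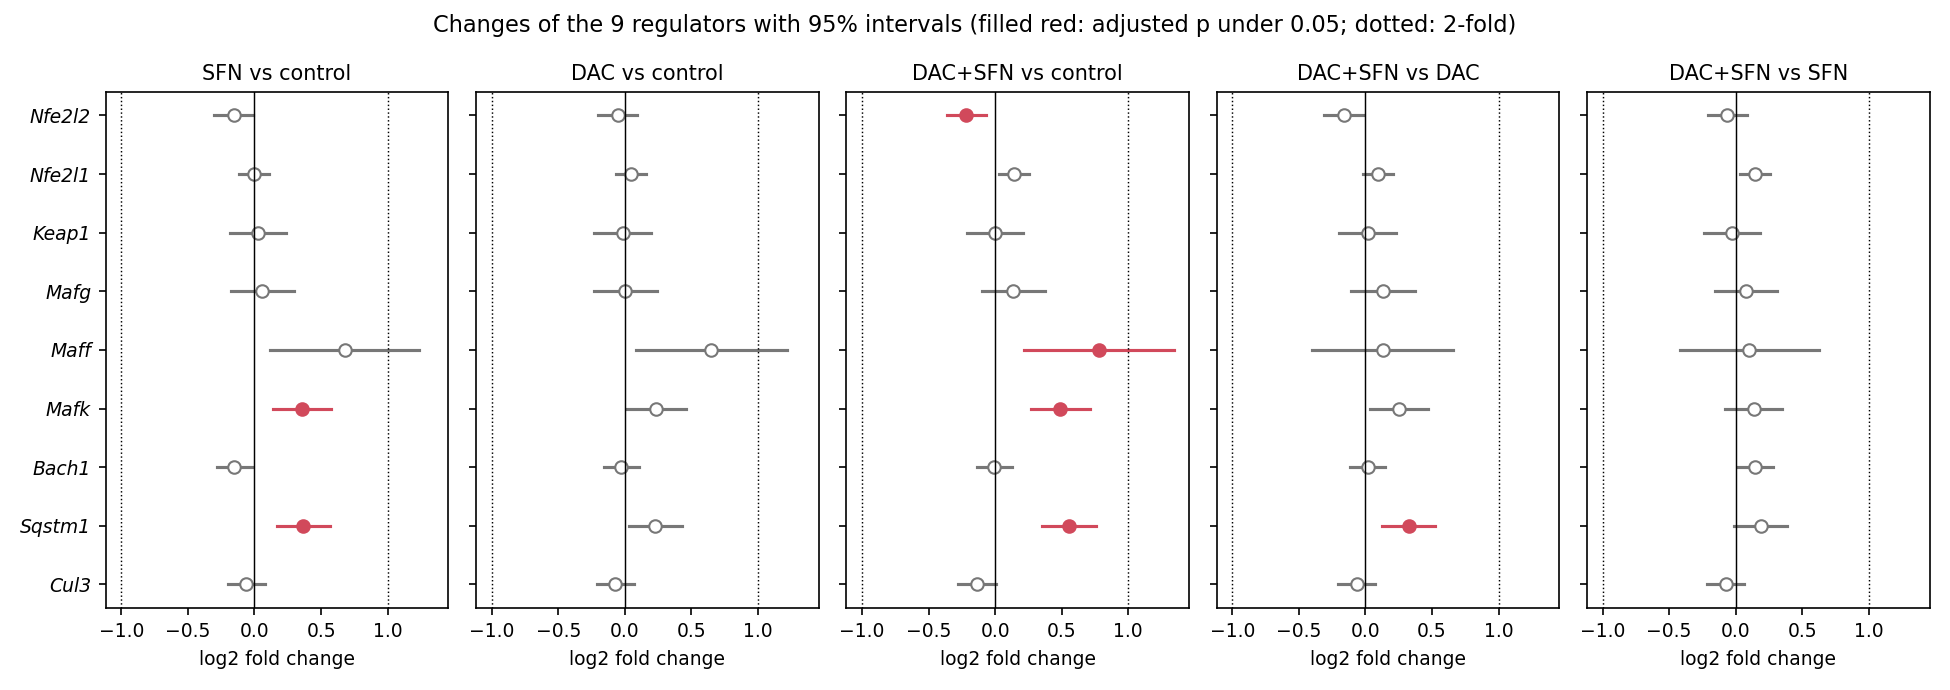
Log2 fold change (x axis) of each member with its 95% interval in 5 comparisons, where filled red points passed an adjusted p-value of 0.05 in edgeR and dotted lines mark 2-fold. Sqstm1 and Mafk lie to the right of 0 with SFN and with DAC+SFN, Nfe2l2 lies to the left with DAC+SFN, and Keap1 sits at 0 in all 5 panels.

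Nfe2l2 itself did not rise in any treated group. Its level was 158, 193 and 153 CPM in control replicates 1, 2 and 3, then 163, 172 and 150 CPM with DAC, 147, 153 and 152 CPM with SFN, and 139, 144 and 149 CPM with DAC+SFN. All 3 DAC+SFN libraries and all 3 SFN libraries lay below the lowest control library, while DAC overlapped with control. Non-overlap of the groups was seen for 3 of 9 members with SFN (Nfe2l2, Maff and Mafk) beside 20.8% of all genes, and for 2 of 9 with DAC+SFN (Nfe2l2 and Nfe2l1) beside 29.4%. With DAC+SFN, Nfe2l2 fell by 0.22 on the log2 scale (SE 0.069, 95% interval -0.36 to -0.07, edgeR adjusted p = 0.0260), to a fold of 0.860. The drop was 0.18 and 0.42 in replicates 1 and 2 and 0.04 in replicate 3. This call was lost without control replicate 2 (log2 change -0.13, edgeR adjusted p = 0.199), without DAC+SFN replicate 1 (log2 change -0.21, edgeR adjusted p = 0.0842) and without DAC+SFN replicate 2 (log2 change -0.17, edgeR adjusted p = 0.131). With SFN alone the log2 change was -0.15 (95% interval -0.30 to -0.01, edgeR adjusted p = 0.151), lower in 3 of 3 replicates and past no threshold.

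Nfe2l1, the NRF1 gene, moved the other way and only slightly. Its mean was 289 ± 6.95 CPM in control and 289 ± 18.1 CPM with SFN, and 320 ± 24.2 CPM with DAC+SFN (SD, n = 3). The 3 DAC+SFN libraries, at 346, 297 and 319 CPM, lay above the highest control library at 295 CPM. The log2 change of 0.14 (SE 0.053, 95% interval 0.03 to 0.26) just missed the threshold at an edgeR adjusted p of 0.0503. It passed in 2 of 11 alternative settings, of which 1 was the version 4 fit of edgeR (adjusted p = 0.0472). Against SFN the addition of DAC gave the same size of difference, 0.15 on the log2 scale, with an edgeR adjusted p of 0.159.

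Keap1, the sensor that SFN is known to modify, barely moved in any group. Its level was 47.5, 49.5 and 50.9 CPM in control, 45.0, 45.6 and 55.3 CPM with DAC, 52.6, 47.1 and 51.1 CPM with SFN, and 52.3, 53.6 and 41.8 CPM with DAC+SFN. The 4 groups overlapped, and DAC+SFN held both the lowest library of all and 1 of the 3 highest. The log2 change was 0.03 (95% interval -0.18 to 0.24) with SFN and 0.00 (95% interval -0.21 to 0.21) with DAC+SFN, and together these intervals cover folds of 0.862 to 1.18. Of the Keap1 exon bases, 10.9% are shared with an antisense transcript, Gm16754, that has no row of its own in the counts.

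Cul3, the scaffold of the ligase, ranged from 153 to 188 CPM over the 12 libraries and was not called in any comparison. With DAC+SFN it stood at 163 ± 10.1 CPM against 179 ± 8.55 CPM in control (SD, n = 3), a log2 change of -0.14 (95% interval -0.28 to 0.00, edgeR adjusted p = 0.126). Replicates 1 and 2 were lower by 0.20 and 0.23 on the log2 scale, and replicate 3 was higher by 0.02. Without DAC+SFN replicate 3 the log2 change was -0.22 and passed the threshold (edgeR adjusted p = 0.0150).

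Sqstm1, the gene for the KEAP1-binding cargo receptor p62, had the largest shift in CPM and the call that held in the most fits. Its level was 858, 1254 and 975 CPM in control, 1045, 1352 and 1188 CPM with DAC, 1171, 1763 and 1090 CPM with SFN, and 1473, 1917 and 1165 CPM with DAC+SFN. Replicate 2 was the highest library in each of the 4 groups, so the group ranges overlapped although each treatment was higher than control within each of the 3 replicates. With SFN the fold was 1.29 (log2 change 0.37, SE 0.094, edgeR adjusted p = 0.0177), and with DAC+SFN it was 1.47 (log2 change 0.55, SE 0.094, edgeR adjusted p = 0.000580). The DAC+SFN call was kept in all 6 fits that left out 1 library of the 2 groups (log2 change 0.46 to 0.66), and with replicates 1 and 3 only, whereas the SFN call was lost without control replicate 1 or 2 or SFN replicate 1 or 2 (log2 change 0.29 to 0.38, edgeR adjusted p = 0.0607 to 0.120) and in DESeq2 (adjusted p = 0.0741).

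The change of Sqstm1 within replicates was uneven. With DAC+SFN it was 0.78, 0.61 and 0.26 on the log2 scale in replicates 1, 2 and 3, and with SFN it was 0.45, 0.49 and 0.16. Replicate 3 thus gave the smallest change in both comparisons. DAC alone gave 0.28, 0.11 and 0.29, a mean log2 change of 0.23 (95% interval 0.03 to 0.43) that did not pass (edgeR adjusted p = 0.420). It passed when only the DAC and control libraries were fitted (edgeR adjusted p = 0.00238). That fit called 663 genes in all, against 21 in the model of all 12 libraries. Against DAC the addition of SFN was called for 1 of 9 members, Sqstm1, with a log2 change of 0.32 (edgeR adjusted p = 0.0307), beside 16.1% of all genes. That call was lost, at log2 changes of 0.23 to 0.30, without DAC replicate 1 (edgeR adjusted p = 0.124), DAC replicate 2 (0.169), DAC+SFN replicate 1 (0.188) or DAC+SFN replicate 2 (0.0996). Without DAC+SFN replicate 3, 4 members were called, in a fit that called 2377 genes in all against 1879 with every library. Sqstm1 shares 580 bases, or 17.3% of its exons, with the antisense gene Mrnip (listed as 3010026O09Rik), which held 103 to 260 counts against at least 18655 for Sqstm1 and which fell with SFN by 0.54 on the log2 scale. The library kit was stranded, and the strand setting of the counting is not given in the sources used here.

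The small MAF partners differed from each other. Mafk stood at 24.0, 27.1 and 24.6 CPM in control, 25.5, 36.9 and 27.5 CPM with DAC, 30.2, 40.1 and 27.5 CPM with SFN, and 33.9, 47.2 and 27.0 CPM with DAC+SFN. All SFN libraries lay above all control libraries, while DAC+SFN replicate 3 fell just inside the control range. The fold was 1.28 with SFN (log2 change 0.36, SE 0.10, edgeR adjusted p = 0.0317) and 1.40 with DAC+SFN (log2 change 0.49, SE 0.10, edgeR adjusted p = 0.00254). Within replicates the DAC+SFN change was 0.50, 0.80 and 0.14 on the log2 scale. This call was kept in all 6 fits without 1 library (edgeR adjusted p up to 0.0269), but with replicates 1 and 3 only it was not (log2 change 0.31, edgeR adjusted p = 0.0998), and the SFN call was lost in 5 of 6 such fits, those without control replicate 1 or 2 or any 1 SFN library (log2 change 0.23 to 0.38, edgeR adjusted p = 0.0727 to 0.227).

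Maff was the member with the largest fold and the widest error. It stood at 2.07, 2.15 and 3.08 CPM in control, 3.56, 3.51 and 4.08 CPM with DAC, 3.58, 5.01 and 3.15 CPM with SFN, and 3.64, 6.32 and 2.76 CPM with DAC+SFN, on 45 to 133 counts per library. All DAC and SFN libraries lay above the control libraries, and DAC+SFN replicate 3 lay within the control range. The fold was 1.71 with DAC+SFN (log2 change 0.78, SE 0.26, 95% interval 0.21 to 1.34, edgeR adjusted p = 0.0359), higher in 2 of 3 replicates. The call was lost in 4 of 6 fits without 1 library, with a log2 change of 0.44 (edgeR adjusted p = 0.263) without DAC+SFN replicate 2 and of 0.51 (edgeR adjusted p = 0.228) without control replicate 2, and with edgeR adjusted p-values of 0.117 without control replicate 1 and 0.0805 without DAC+SFN replicate 1. With DAC alone and SFN alone the log2 changes were 0.65 and 0.68, and neither passed (edgeR adjusted p = 0.420 and 0.102). The SFN change passed without control replicate 3 (log2 change 0.97, edgeR adjusted p = 0.0341) and without the filter on low counts (log2 change 0.67, edgeR adjusted p = 0.0372). For DAC this was the only member without overlap with control, beside 8.43% of all genes.

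Mafg, the most abundant small MAF gene in control, was not called. Its mean was 39.2 ± 2.31 CPM in control and 43.1 ± 6.59 CPM with DAC+SFN (SD, n = 3), a log2 change of 0.14 (95% interval -0.10 to 0.37, edgeR adjusted p = 0.38). Replicates 1 and 2 were higher by 0.31 and 0.30 on the log2 scale and replicate 3 gave -0.24. Without DAC+SFN replicate 3 the log2 change was 0.29 and passed (edgeR adjusted p = 0.0180). Mafg shares 2.21% of its exon bases with Sirt7 on the same strand, and Mafk shares 4.33% with Tmem184a on the other strand, which held 7 to 22 counts.

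Summed per length, Mafg gave 48.6 ± 1.89% of the small MAF transcripts in control, Mafk 44.9 ± 2.88% and Maff 6.49 ± 1.26% (SD, n = 3). With DAC+SFN these shares were 42.0 ± 5.01%, 49.5 ± 3.22% and 8.56 ± 1.84%. On these lengths the mean order of Mafg and Mafk turned, and the share of Mafg lay below the control range in all 3 DAC+SFN libraries (36.2 to 45.5% against at least 46.4%). The per-length ratio of Nfe2l2 to the small MAF sum went from 3.08 ± 0.406 in control to 2.67 ± 0.359 with DAC, 2.34 ± 0.314 with SFN and 2.13 ± 0.558 with DAC+SFN. These ratios were not tested, and DAC+SFN replicate 3, at 2.75, lay inside the control range of 2.70 to 3.51. The ratio of Nfe2l2 to Keap1 was 4.22 ± 0.556 in control and 3.68 ± 0.641 with DAC+SFN, with overlapping ranges.

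Bach1, the repressor that competes for the same elements, was at 42.1, 36.9 and 43.1 CPM in control, 41.6, 36.4 and 42.0 CPM with DAC, 38.6, 32.1 and 39.3 CPM with SFN, and 41.7, 35.5 and 44.5 CPM with DAC+SFN. Replicate 2 was the lowest library in every group. Within replicates SFN was lower than control by 0.13, 0.20 and 0.13 on the log2 scale, the most even within-replicate changes among the members with SFN, although the ranges overlapped. The log2 change of -0.15 (SE 0.062, 95% interval -0.28 to -0.02) had an unadjusted p of 0.0258 in edgeR and did not pass the adjustment (0.116). With DAC+SFN the log2 change was -0.01 (95% interval -0.14 to 0.12), and DAC+SFN against SFN gave 0.15 (edgeR adjusted p = 0.226), higher in 3 of 3 replicates. The ratio of Nfe2l2 to Bach1 was 6.81 ± 1.49 in control, 6.75 ± 0.857 with SFN and 5.83 ± 0.666 with DAC+SFN (SD, n = 3).

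**Figure D3:**
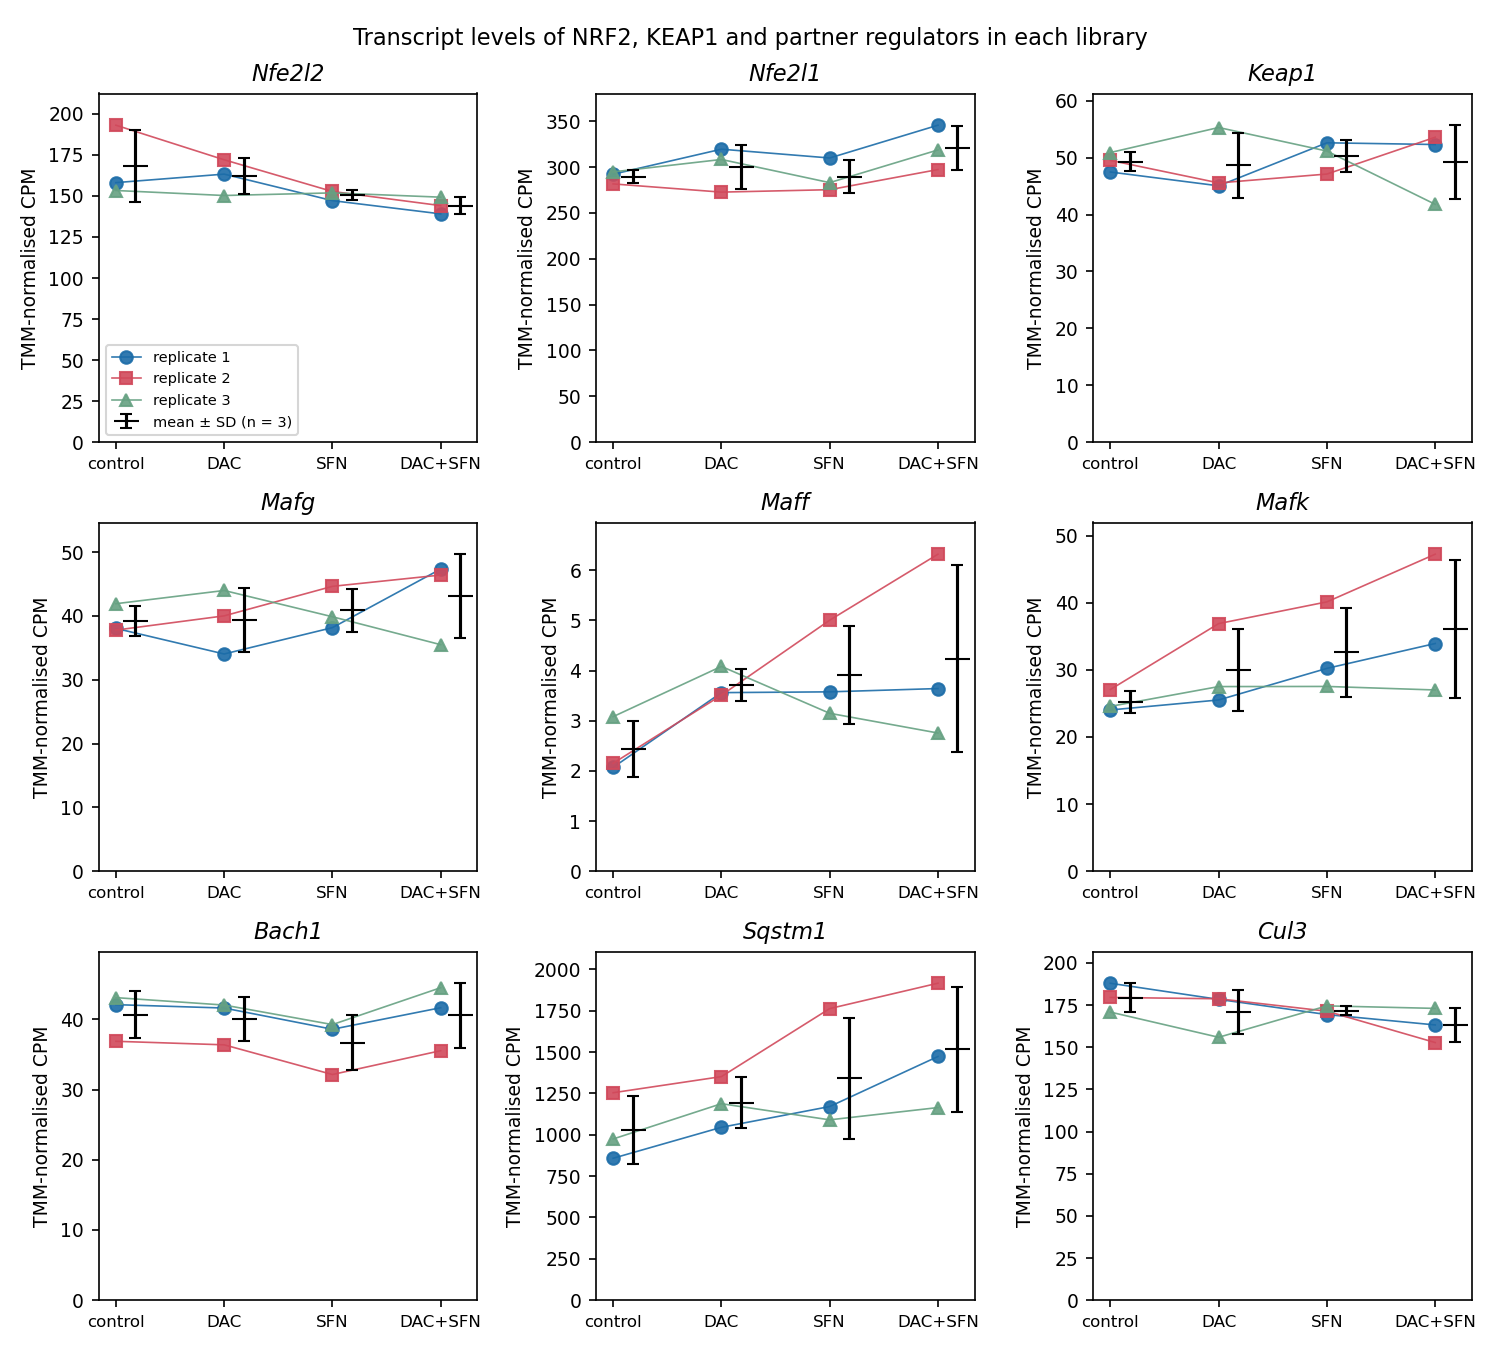
TMM-normalised CPM (y axis, from 0) of each member in every library, with replicates 1, 2 and 3 joined by lines across control, DAC, SFN and DAC+SFN, and mean ± SD (n = 3) in black. The line of replicate 2 lies highest for Sqstm1 and Mafk and lowest for Bach1 and Nfe2l1 in all 4 groups, and the line of replicate 3 is no higher at DAC+SFN than at DAC for Sqstm1, Mafk and Maff.

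What DAC added to SFN was asked in the comparison with SFN. Whether 1 drug altered the effect of the other was asked only in the interaction of both drugs. Between DAC+SFN and SFN no member was called in the edgeR model of all 12 libraries or in DESeq2, beside 1.61% of all genes in edgeR, and 2 members (Nfe2l1 and Bach1, both higher) had an unadjusted p-value under 0.05, beside 17.8%. The difference for Sqstm1 was 0.19 on the log2 scale (95% interval -0.01 to 0.39) and for Mafk 0.13 (95% interval -0.08 to 0.35). Sqstm1 passed with only these 2 groups in the fit (log2 change 0.18, edgeR adjusted p = 0.0204) and without DAC+SFN replicate 3 (log2 change 0.30, edgeR adjusted p = 0.0470). Nfe2l1 passed with only these 2 groups (log2 change 0.15, edgeR adjusted p = 0.0473). In all, 1267 genes were called with only these 2 groups and 703 without DAC+SFN replicate 3, against 187 with all 12 libraries. For the interaction no member was called by edgeR or DESeq2 and none had an unadjusted p-value under 0.05 in edgeR, beside 0% of all genes called and 5.87% at an unadjusted p-value under 0.05. The interaction was -0.04 for Sqstm1 (95% interval -0.33 to 0.24), -0.10 for Mafk (95% interval -0.41 to 0.21) and -0.01 for Nfe2l2 (95% interval -0.22 to 0.20). For Maff, the member with the fewest counts, it was -0.55 with the widest interval (-1.32 to 0.22).

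The replicate number moved several members as much as the drugs did. In the same fit 4 of 9 members differed between replicate numbers, Sqstm1, Mafk, Bach1 and Nfe2l1, beside 33.9% of all genes. Over the 4 groups Sqstm1 averaged 1137, 1571 and 1104 CPM in replicates 1, 2 and 3 (edgeR adjusted p = 0.000480), and Mafk averaged 28.4, 37.8 and 26.6 CPM (edgeR adjusted p = 0.00153). Bach1 averaged 41.0, 35.2 and 42.2 CPM (edgeR adjusted p = 0.00390), and Nfe2l1 averaged 317, 282 and 301 CPM (edgeR adjusted p = 0.0302). Replicate 2 was highest for Sqstm1 and Mafk and lowest for Bach1 and Nfe2l1 in 4 of 4 groups, by 0.47 and 0.40 and by -0.22 and -0.17 on the log2 scale against replicate 1. Without the replicate number as a block no member was called by edgeR with SFN, DAC+SFN or DAC+SFN against DAC. With DAC+SFN the log2 changes were 0.56 for Sqstm1 (edgeR adjusted p = 0.110) and 0.51 for Mafk (edgeR adjusted p = 0.121). That fit called 23, 1201 and 20 genes in all in these comparisons, against 1619, 3683 and 1879 with the block. When replicate 2 was left out of all groups, 0 members were called with SFN and 1, Sqstm1, with DAC+SFN, in a fit of 8 libraries that called 429 genes in all with SFN and 1762 with DAC+SFN, against 1619 and 3683 with all 12. The fits without replicate 1 or without replicate 3 in every group were not run. The summed markers of other cell types given above also differed between the replicate numbers, and their part in these differences was not tested.

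Sqstm1 and Mafk went up and down together from library to library, with a Pearson r of 0.944 over the 12 libraries, which share the replicate and treatment shifts given above. Mafk and Maff had an r of 0.801, and Bach1 ran against both Mafk (r = -0.751) and Sqstm1 (r = -0.727). Among all genes tested, the patterns most like that of Mafk were those of Phc2 (r = 0.984) and Steap1 (r = 0.981), and most like that of Sqstm1 those of Mtfr1l (r = 0.974) and Dlgap4 (r = 0.972). Nfe2l2 was nearest to Eef1a1 (r = 0.956), a translation elongation factor, and Ptcd2 (r = 0.951), and Maff to Plod1 (r = 0.932) and Fam129c (r = 0.931), each over 12 libraries.

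The known targets of NRF2, unlike its own transcript, were mostly higher with SFN. Of 28 target genes tested, 18 rose and 1 fell with SFN, and 19 rose and 3 fell with DAC+SFN, with a median log2 change of 0.47 and 0.49 against 0.00 and 0.01 over all genes. The leading ones with DAC+SFN were Gsta3, a glutathione transferase (log2 change 4.22), Nqo1, a quinone reductase (2.12), and Blvrb, a biliverdin reductase (1.60). Gsta3 stood at only 1.15 ± 0.325 CPM in control, near the filter of 1 CPM, and at 21.5 ± 6.21 CPM with DAC+SFN (SD, n = 3). The 3 that fell with DAC+SFN, named after their values were seen, were Idh1 (-0.91), Ugdh (-0.47) and Gsta1 (-0.47), enzymes of NADPH supply, glucuronate supply and glutathione conjugation. With DAC alone 0 of 28 passed in edgeR and DESeq2 (6 at an unadjusted p-value under 0.05 in edgeR). Between DAC+SFN and SFN 0 passed in edgeR (3 at an unadjusted p-value under 0.05) and 1 in DESeq2. Over all genes edgeR called 0.180% with DAC alone (10.1% at that unadjusted threshold) and 1.61% between DAC+SFN and SFN (17.8%). In replicates 1 and 3 alone, 15 targets rose with SFN and 18 with DAC+SFN, and without the replicate block 4 and 14 did. Over all genes the first of these fits called 429 with SFN and 1762 with DAC+SFN. The fit without the block called 23 and 1201, against 1619 and 3683 with the block and all 12 libraries. In both the SFN and the DAC+SFN group all libraries held less Nfe2l2 transcript than the lowest control library.

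Proteasome subunits, the genes that NRF1 is known to control, were mostly lower with DAC+SFN. Of 31 tested, 6 fell with SFN and 23 with DAC+SFN and none rose in either, beside 5.65% and 14.7% of all genes lower, with a median log2 change of -0.13 and -0.18 against 0.00 and 0.01 over all genes. The largest drops with DAC+SFN were those of Psma1 (log2 change -0.41), Psmc2 (-0.35) and Psmb2 (-0.33), which encode parts of the core particle and, for Psmc2, an ATPase of the cap. Against DAC, 13 fell, beside 6.60% of all genes. In the fit of replicates 1 and 3 only, 5 fell against DAC and 0 with SFN. Without the replicate block 0 fell against DAC and 0 with SFN. Those fits called 863 and 20 genes in all against DAC, and 429 and 23 with SFN. With the block and all 12 libraries 1879 and 1619 genes were called. With DAC+SFN, 8 subunits fell in the smaller fit of replicates 1 and 3 only and 9 without the block, fits that called 1762 and 1201 genes in all against 3683, and DESeq2 called 23. Nfe2l1 itself was higher in 3 of 3 replicates in the same comparison. Among 7 genes that process NRF1 or mark it for removal, Fbxw7 (0.24) and Ogt (0.22) rose with DAC+SFN in edgeR. Sel1l, a part of the machinery that draws proteins from the endoplasmic reticulum, fell there by 0.19 on the log2 scale. With SFN, Sel1l was the 1 gene of the list called in edgeR, and DESeq2 called 2 lower. Over all genes edgeR called 31.6% with DAC+SFN and 13.9% with SFN.

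**Figure D4:**
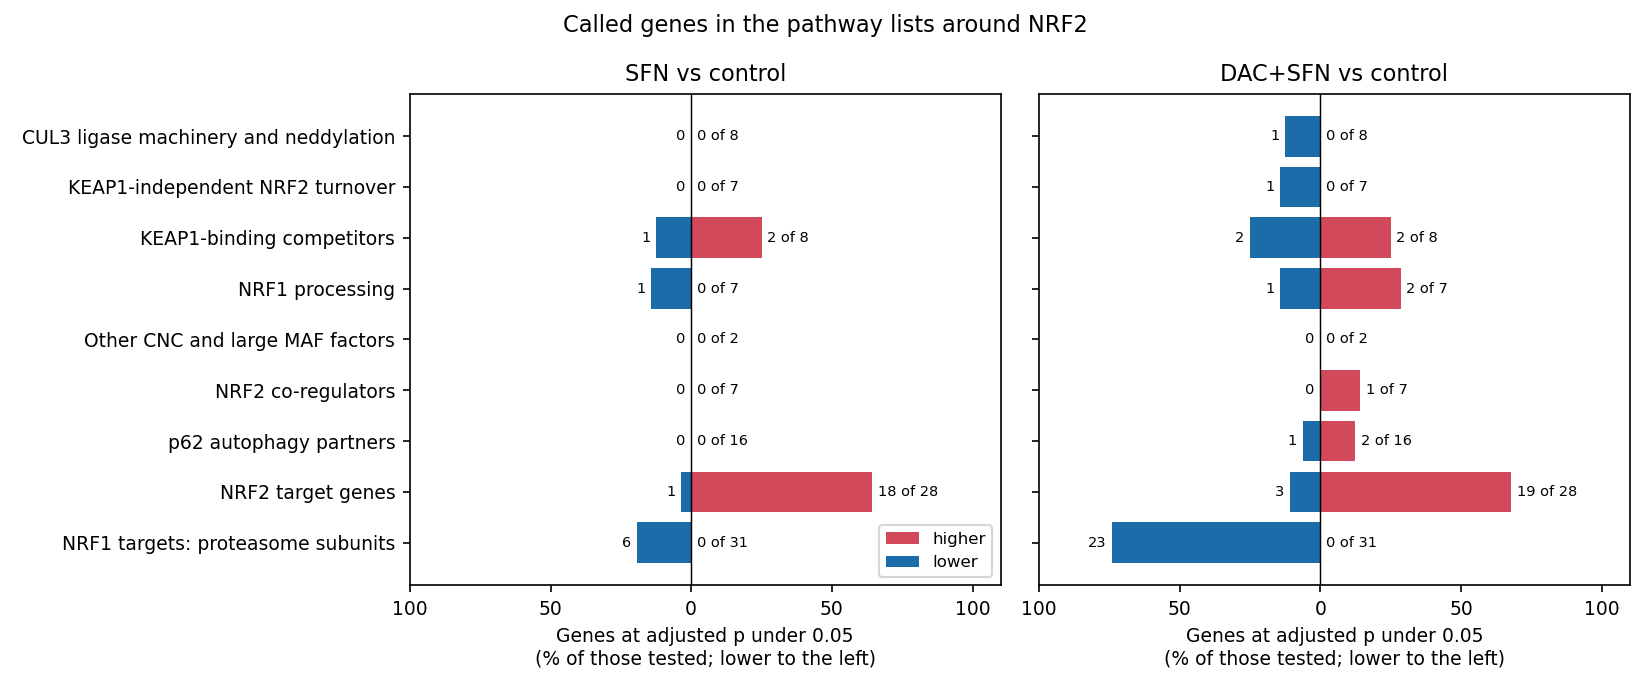
Share of the tested genes of 9 pathway lists that were called in edgeR (x axis, %, higher to the right in red and lower to the left in blue) with SFN and with DAC+SFN against control. NRF2 target genes lie mostly to the right (18 and 19 of 28) and proteasome subunits to the left (6 and 23 of 31), and the other lists hold 0 to 2 genes on either side.

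The genes that act on NRF2 protein beside the members gave 1 call in each of 3 lists with DAC+SFN, beside 31.6% of all genes. Of 8 genes of the CUL3 ligase and its neddylation, 1 was called with DAC+SFN, Nae1, a subunit of the NEDD8-activating enzyme, which fell by 0.25 on the log2 scale. Of 7 genes of NRF2 turnover that does not use KEAP1, Cul1 fell by 0.19. Of 7 co-regulators, the acetyltransferase gene Ep300 rose by 0.20. Ep300 was also higher with DAC+SFN than with DAC (log2 change 0.23, edgeR adjusted p = 0.0129) and than with SFN (log2 change 0.23, edgeR adjusted p = 0.0490). Over all genes 16.1% and 1.61% were called there. With replicates 1 and 3 only, 1 co-regulator was called against DAC and 0 against SFN, and without the block 0 in each. With SFN alone, where 13.9% of all genes were called, no gene of these 3 lists passed in edgeR or DESeq2, and none had an unadjusted p-value under 0.05 in edgeR. For DAC+SFN against control, none of the genes of these 3 lists or of NRF1 processing was called with replicates 1 and 3 only. The same held without the replicate block. Of 7 other CNC and large MAF factors, 5 were too low to be tested and the other 2 were not called.

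Among 8 genes for proteins that compete with NRF2 for KEAP1 or shield it, 2 rose and 1 fell with SFN, and 2 rose and 2 fell with DAC+SFN, beside 13.9% and 31.6% of all genes called. With DAC alone 1 of the 8 was called, Cdkn1a, with a log2 change of 0.60 (edgeR adjusted p = 0.0441), beside 0.180% of all genes. Cdkn1a, the cell cycle inhibitor p21, which is known to shield NRF2 from KEAP1, went from 301 ± 66.5 CPM in control to 776 ± 193 CPM with DAC+SFN (SD, n = 3, log2 change 1.36, edgeR adjusted p = 1.91e-06). With DAC alone its call was lost without the replicate block and with replicates 1 and 3 only. Fam129b rose by 0.55 with DAC+SFN. Brca1, a DNA repair gene, fell by 0.79 on the log2 scale. With DAC+SFN, 2 of the 8 rose and 1 fell with replicates 1 and 3 only, and 1 rose and 1 fell without the replicate block. With SFN, 1 rose and 1 fell with replicates 1 and 3 only, and 0 rose and 0 fell without the block. Cdkn1a was thus the only gene of this list past a 2-fold change. Among 16 autophagy partners of p62, Gabarapl1 (0.27), which takes part in forming autophagosomes, and the kinase gene Ulk1 (0.22) rose with DAC+SFN, and Tfeb, a transcription factor of lysosomal genes, fell by 0.39 on the log2 scale, 3 of 16 called beside 31.6% of all genes, while none was called with SFN in edgeR or DESeq2, and 3 had an unadjusted p-value under 0.05 in edgeR. With replicates 1 and 3 only, none of the 16 was called with DAC+SFN.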

How the data were processed

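RNA of B16F10 cells in 4 groups with 3 replicates each was sequenced as single-end reads from stranded libraries. Per the labels, the authors checked reads with FastQC 0.11.7, trimmed them with Trimmomatic 0.38, aligned them with TopHat2 2.1.1 to mm10 and counted them with HTSeq. They deposited raw counts per gene symbol, whole numbers without normalization. The annotation and strand setting of the counting are not given in the sources used here.

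Genes that reached 1 CPM in 3 or more of 12 libraries were kept, scaled by TMM and tested with glmQLFTest in edgeR 4.0.16 (legacy fit, two-sided) in R 4.3.3, with Benjamini-Hochberg adjustment over 11638 genes. A single model held all 12 samples and used the replicate number as its block, in place of the unnamed batch of the study's methods. After the mean of each group was removed, samples of the same number in different groups correlated at 0.270 to 0.732 in all 18 pairs, so the numbers were taken to pair the samples. Calls needed an adjusted p-value under 0.05, and the 2-fold change that the study also asked for is named separately. Fold changes carry a prior count of 0.125, within-replicate differences and correlations a prior count of 2. Lengths are unions of GENCODE M21 exons, and promoter windows come from RefSeq. Plots were made in Python 3.11.15 (matplotlib 3.10.9).

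The members, the gene lists and the rule for named genes (all members, up to 3 called genes per list with the largest log2 change with DAC+SFN, and the 2 nearest genes by correlation to each called member) were chosen with earlier results of these data known. The alternatives were other scalings (DESeq2 size factors, upper quartile), DESeq2 1.42.0, the version 4 and robust fits of edgeR, other filters, a prior count of 2, no block, only the groups compared, each library left out, the longest transcript as length and, added after the data were seen, replicates 1 and 3 only. Counts were also simulated for SFN against control (11454 genes). Of 65 changes of 1.2-fold, 9 were recovered (13.8%), of 71 of 1.5-fold 60 (84.5%) and of 64 of 2-fold 63 (98.4%). Beside these there were 14 false calls. Recovery with as many changed genes as the 1619 called with SFN was not tested.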

Additional observations from a re-analysis of the deposited data

How the results depend on the processing

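With DAC+SFN against control, the calls of Sqstm1 and Mafk held under every scaling, filter and fit of edgeR that kept the replicate block, with each library left out and in DESeq2, and Mafk did not hold with replicates 1 and 3 only. The replicate block decided the number of members called. Without it the counts of 2 with SFN, 4 with DAC+SFN and 1 for DAC+SFN against DAC all became 0. The log2 changes stayed close to those with the block, and no other count of members changed. Calls over all genes fell as well, from 1619 to 23 with SFN and from 3683 to 1201 with DAC+SFN. For DAC+SFN against DAC they fell from 1879 to 20. With only the groups compared in the fit, 1 member was called with DAC and 2 with DAC+SFN. For DAC+SFN, 0 were called against DAC and 2 (Sqstm1 and Nfe2l1) against SFN. Over all genes these fits called 663 with DAC and 2608 with DAC+SFN, against 21 and 3683 in the model of all 12 libraries. They called 748 against DAC and 1267 against SFN, where that model called 1879 and 187. Without the filter on low counts 3 were called with SFN, Maff being added. Apart from the fits without 1 library, 11 alternatives were run with DAC+SFN, where 0 to 5 members were called. Nfe2l1 was called in 2 of them. When replicate 2 was left out of every group, 0 were called with SFN, 1 with DAC+SFN and 0 against DAC. Over all genes 429, 1762 and 863 were called there. DESeq2 called 1 with SFN and 0 for DAC+SFN against DAC, and the robust fit also called 0 there. With 1 library left out, the counts ran from 0 to 3 with SFN, from 2 to 6 with DAC+SFN, from 0 to 4 for DAC+SFN against DAC and from 0 to 1 for DAC+SFN against SFN. The causes of these shifts were not tested. DAC+SFN replicate 3 gave the smallest Sqstm1 and Mafk changes, and the counts of all 3 comparisons that held it were highest without it. The same held for all genes, with 4199 called with DAC+SFN, 2377 against DAC and 703 against SFN without this library. With all 12 libraries 3683, 1879 and 187 genes were called.

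Changes of sign were seen only for log2 changes that had not been called. Without the low-count filter, Keap1 for DAC+SFN against DAC was -0.0028, and with only the groups compared Mafg with DAC was -0.0011. In the fit of replicates 1 and 3 only, the SFN values of Nfe2l1 and Mafg were 0.0059 and -0.041, the DAC values of Nfe2l2, Keap1 and Mafg were 0.012, 0.032 and -0.033, the DAC+SFN value of Bach1 was 0.0074, the values of Keap1, Maff and Cul3 for DAC+SFN against DAC were -0.10, -0.27 and 0.000066, that of Maff against SFN was -0.068, and the interaction of Cul3 was 0.067. With 1 library left out, the SFN changes ran from -0.017 to 0.077 (Keap1), -0.013 to 0.12 (Mafg) and -0.052 to 0.030 (Nfe2l1), and the DAC changes from -0.15 to 0.055 (Keap1), -0.12 to 0.11 (Mafg) and -0.11 to 0.036 (Nfe2l2). The DAC+SFN changes ran from -0.041 to 0.0079 (Bach1) and -0.10 to 0.14 (Keap1). Against DAC they ran from -0.017 to 0.035 (Bach1), -0.083 to 0.16 (Keap1), -0.19 to 0.39 (Maff) and -0.0023 to 0.29 (Mafg), and against SFN from -0.12 to 0.12 (Keap1), -0.24 to 0.35 (Maff) and -0.057 to 0.23 (Mafg). The interactions ran from -0.085 to 0.051 (Cul3), -0.10 to 0.14 (Keap1), -0.059 to 0.23 (Mafg), -0.20 to 0.021 (Mafk), -0.099 to 0.049 (Nfe2l2) and -0.14 to 0.074 (Sqstm1).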
